A study of Mus musculus with 16 samples.

Results

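The genes described here are a set known for guiding olfactory sensory axons to their broad territories in the olfactory bulb: the neuropilins Nrp1 and Nrp2, the plexins Plxna1 and Plxna3, the semaphorins Sema3a and Sema3f, the receptor Robo2 and its ligand Slit1. They were chosen by name, with earlier results of these data known. Of the 8, 7 were analysed, each by 1 probe set among the 19572 probe sets that named a gene. Nrp1 was not analysed here, since no probe set was annotated to it in the probe-to-gene table used, which left 2634 probe sets unnamed. The samples were cells sorted from the olfactory mucosa of a mouse line, S100a5-tauGFP, in which the activity-dependent gene S100a5 is paired with a green fluorescent reporter fused to tau, measured on Clariom S arrays. All 24 mice carried this reporter, were of both sexes and were 7 to 12 weeks old. Each stayed alone in a clean-air chamber for 40 h at 3.1 L/min, and from 26 h on received 10 s pulses every 20 min of either 2-octanone, an 8-carbon ketone odorant, or filtered air as vehicle. Mice were pooled by 3, into 4 pools per exposure, and each pool was sorted into GFP+ and GFP- cells, which made 4 groups with 4 arrays in each. GFP+ here means only that the reporter passed the sort gate, and a pool value averages over 3 mice.

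Class 3 semaphorins are secreted proteins that turn growth cones away. Neuropilins bind them and plexins of the A group carry the signal into the axon. Sema3a acts mainly through Nrp1 and Sema3f through Nrp2. In the olfactory system, Nrp1 and Sema3a levels differ between sensory neurons and are tied to the front-to-back position of their axons, through cAMP signals set by the odorant receptor. Nrp2 with Sema3f, and Robo2 with Slit ligands, act along the dorsal-to-ventral axis. These roles are background and were not measured here.

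RefSeq promoter entries (GRCm38.p6) matched 5 of the 8 genes. The 250 bases before the start are shown for the 3 genes that stand for the directions seen in the sort: Plxna3 and Nrp2, which were higher in GFP+ cells, and Sema3a, which was lower. Sequences run 5′ to 3′ on the gene's strand, which is the plus strand for each, and capitals mark a motif match. The entries are Plxna3 at chrX:74328816-74329065, Nrp2 at chr1:62703067-62703316 and Sema3a at chr5:13396534-13396783.
Plxna3: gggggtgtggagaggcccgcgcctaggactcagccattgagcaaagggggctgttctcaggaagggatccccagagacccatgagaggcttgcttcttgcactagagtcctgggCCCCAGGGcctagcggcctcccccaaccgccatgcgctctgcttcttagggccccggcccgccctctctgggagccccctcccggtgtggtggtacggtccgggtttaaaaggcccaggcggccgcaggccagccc
Nrp2: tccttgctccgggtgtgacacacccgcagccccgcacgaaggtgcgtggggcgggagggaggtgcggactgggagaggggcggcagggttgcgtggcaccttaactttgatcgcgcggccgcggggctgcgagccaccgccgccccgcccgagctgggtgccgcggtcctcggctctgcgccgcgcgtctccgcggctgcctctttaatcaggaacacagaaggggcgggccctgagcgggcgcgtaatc
Sema3a: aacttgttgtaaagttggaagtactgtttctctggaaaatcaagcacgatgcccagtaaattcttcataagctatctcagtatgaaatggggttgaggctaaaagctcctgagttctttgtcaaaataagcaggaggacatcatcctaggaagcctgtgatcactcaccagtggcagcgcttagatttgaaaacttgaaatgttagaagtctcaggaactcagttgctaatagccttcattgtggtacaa
Both strands were searched for CCCNNGGG, the core bound by Ebf (Olf-1) factors of sensory neurons, for the homeodomain core TAATTA, for the cAMP response element TGACGTCA and for its shorter core TGACG, which the full element contains. Plxna3 held 1 match, CCCCAGGG, at position -136 relative to the start, and 1 of the 3 Robo2 starts held CCCCGGGG at -208. Nrp2 and Sema3a held none of the 4. Among 32851 promoter entries, windows of the same length held the Ebf core in 11.8%, TAATTA in 4.84%, TGACGTCA in 1.55% and TGACG in 17.8%. The windows differed in composition: Nrp2 had 72.4% G and C with 32 CpG, Plxna3 68.0% with 12, and Sema3a 40.8% with 2, against medians of 52.4% and 6 over all entries.

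The deposited values were read as log2 signals, so a difference of 1 is a 2-fold change. A probe set was taken as above background where it passed the 95th percentile of 23 background control probe sets of its array, which lay between 7.61 and 8.18. The mature sensory neuron marker Omp read 17.76 to 18.45 on all 16 arrays, so both fractions held such neurons. Mature neuron markers were higher in GFP+ cells for 7 of 13 genes (Cngb1, 1 of the 13, passed background on 1 of 16 arrays; median difference 0.30; mean over the list 16.22 to 16.43 in GFP+ and 15.63 to 16.17 in GFP- arrays). Immature neuron markers were lower for 8 of 12 (median -2.15; 10.45 to 10.89 against 11.75 to 12.86), globose basal markers for 7 of 7 (median -2.07; 6.02 to 6.94 against 8.59 to 9.93), and neutrophil markers for 9 of 9 (median -7.05; 6.76 to 12.75 against 14.63 to 16.16). Microvillar markers were lower for 7 of 8 (5.89 to 6.96 against 7.92 to 8.95) and macrophage and dendritic markers for 7 of 10 (6.56 to 7.63 against 8.24 to 9.45). No globose basal or microvillar marker passed background on the mean of a GFP+ group, so the sizes of their differences cannot be read. The globose basal Neurog1, the microvillar Chat and the dendritic Flt3 passed it on none of the 16 arrays. Of 10 sustentacular markers, 1 was higher and 3 were lower (9.36 to 10.61 against 9.99 to 11.21). Beside these counts, 16.7% of all genes were higher and 14% lower at a limma adjusted p under 0.05. No endothelial marker of 11, Pecam1 and Cdh5 included, passed background on the mean of any group; among 9 markers of ensheathing glia only Apod did, and among 9 of fibroblast and mural cells only Dcn and Rgs5. In arrays of sorted pools, fewer cells of a type and less RNA per cell cannot be told apart. S100a5 in GFP+ cells was 13.92 and 13.22 in the replicate 4 pools (2-octanone, then vehicle) against 16.47 to 16.98 in the others. In GFP- cells it was 13.55 and 13.11 against 15.45 to 15.81, so the fractions lay closer in S100a5 in the replicate 4 pools. The Y-linked Eif2s3y was at most 5.31 in the replicate 1 pools and at least 11.05 elsewhere. Results that rest on the replicate 1 or replicate 4 pools are also given without them.

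In the sort, GFP+ cells had more Plxna3, Slit1 and Nrp2 and less Sema3a than GFP- cells. Plxna3 was 1.66-fold higher, Slit1 1.54-fold and Nrp2 1.36-fold, and Sema3a was 2.16-fold lower, on measured values. Plxna1, Sema3f and Robo2 were not called. Calls are at an adjusted p under 0.05, from limma with Benjamini-Hochberg adjustment over all 19572 probe sets. Of the 7 genes, 4 were called, 3 higher and 1 lower, beside 30.7% of all genes called (16.7% higher and 14% lower). The median difference of all genes was itself 0.13, and centring each array on its median moved it to 0.41, since GFP+ arrays had the lower medians. All-gene calls were 54.4% higher as deposited, 64.6% after quantile normalization and 86.4% after centring.

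**Figure D1:**
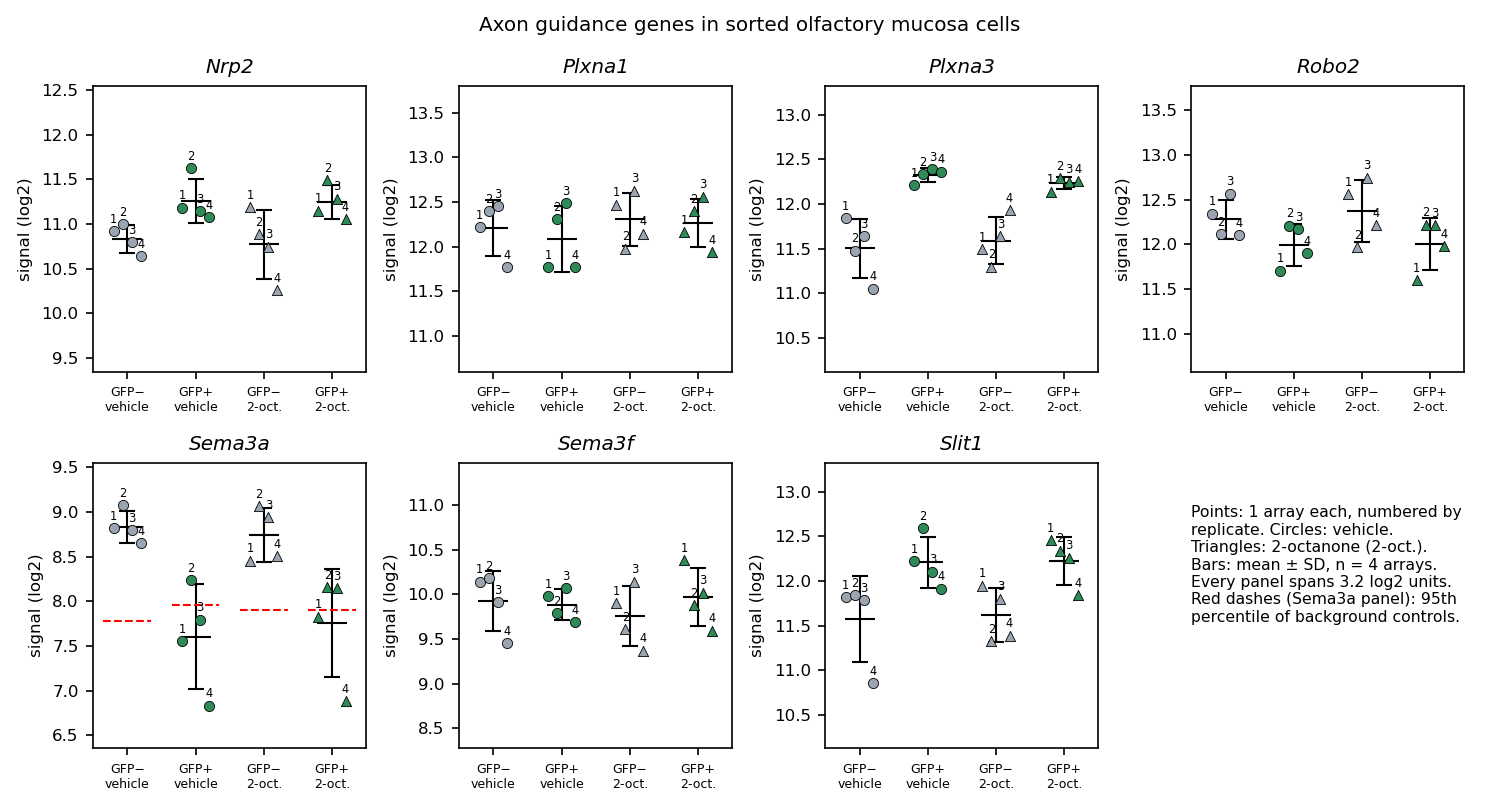
Signal (log2) of the 7 genes on each of the 16 arrays, in GFP- and GFP+ cells after vehicle and after 2-octanone (2-oct.), with numbers giving the replicate bars the mean ± SD of 4 arrays and red dashes the background level beside Sema3a. The 8 GFP+ arrays lie above all GFP- arrays for Plxna3 (from 12.14 upward against at most 11.93) and below them for Sema3a (at most 8.24 against at least 8.46).

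Nrp2, the neuropilin that binds Sema3f, was the co-receptor of the class 3 semaphorins analysed here. Its GFP+ arrays read 11.18, 11.63, 11.14 and 11.08 after vehicle and 11.15, 11.49, 11.29 and 11.05 after 2-octanone. Its GFP- arrays read 10.92, 11.00, 10.80 and 10.64 after vehicle and 11.19, 10.89, 10.75 and 10.26 after 2-octanone. The 2 sets of 8 arrays overlapped through 1 array, the GFP- cells of 2-octanone pool 1, and the other 7 GFP- arrays were below every GFP+ array. Nrp2 was higher in GFP+ cells by 0.45 (SE 0.13, limma adjusted p = 0.0150), or 0.32 above the median of all genes. Within pools it was higher in 7 of 8, from 0.26 to 0.79, and differed by -0.04 in 2-octanone pool 1. Without both replicate 1 pools the difference was 0.56, and without both replicate 4 pools 0.39, both called.

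Plxna3, a signalling receptor for class 3 semaphorins and an X-linked gene, had the smallest SD of the 7 genes in GFP+ cells. Its GFP+ arrays read 12.21, 12.34, 12.39 and 12.36 after vehicle and 12.14, 12.29, 12.25 and 12.26 after 2-octanone. Its GFP- arrays read 11.84, 11.48, 11.64 and 11.05 after vehicle and 11.49, 11.30, 11.64 and 11.93 after 2-octanone. Every GFP+ array was above every GFP- array, which held for 3.18% of all genes, and the SD over 8 arrays was 0.08 in GFP+ and 0.28 in GFP- cells. The difference was 0.73 (SE 0.11, limma adjusted p = 9.41e-05), with 8.12% of genes at a smaller p. Within pools it ran from 0.33 to 1.31 and was positive in 8 of 8, as for 13.5% of all genes. The widest gap, 1.31, was in vehicle pool 4, whose GFP- array read 11.05. Without that pool the difference was 0.65 over both exposures and 0.66 after vehicle, both called. Without the replicate 1 pools, which had low Eif2s3y, the difference was 0.81 (limma adjusted p = 0.000765).

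Plxna1, the other A-group plexin of the set, showed no such separation. Its GFP+ arrays ran from 11.77 through a median of 12.23 to 12.56, and its GFP- arrays from 11.77 through 12.31 to 12.63. The difference was -0.08 (95% interval -0.40 to 0.23, limma adjusted p = 0.693), and its sign turned after median centring (0.19) and without both replicate 1 pools (0.02). It was higher in GFP+ cells in 3 pools and lower in 5.

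Robo2, the receptor for Slit ligands, lay lower in most GFP+ arrays without reaching the threshold. Its GFP+ arrays read 11.70, 12.21, 12.17 and 11.90 after vehicle and 11.60, 12.22, 12.21 and 11.98 after 2-octanone. Its GFP- arrays read 12.34, 12.11, 12.57 and 12.10 after vehicle and 12.56, 11.97, 12.75 and 12.22 after 2-octanone. The fractions overlapped. GFP+ cells were lower in 6 of 8 pools, down to -0.96 in 2-octanone pool 1, and both replicate 2 pools went the other way (0.10 and 0.25). The difference was -0.33 (SE 0.14, limma adjusted p = 0.0769). It was called after quantile normalization (-0.37, limma adjusted p = 0.0313) and without 2-octanone replicate 2 (-0.43, limma adjusted p = 0.0335), and came to -0.05 after median centring and -0.17 without both replicate 1 pools.

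Sema3a, the repellent that binds Nrp1, moved the other way from Plxna3. Its GFP- arrays read 8.82, 9.08, 8.80 and 8.65 after vehicle and 8.46, 9.06, 8.94 and 8.51 after 2-octanone, all above background. Its GFP+ arrays read 7.56, 8.24, 7.80 and 6.83 after vehicle and 7.83, 8.16, 8.15 and 6.88 after 2-octanone. Of these 8, 3 passed background: vehicle replicate 2 and 2-octanone replicates 2 and 3. Every GFP+ array was below every GFP- array, as for 8.25% of all genes. The measured difference was -1.11 (SE 0.21, limma adjusted p = 0.000554). With GFP+ arrays under background set to that array's background, it was -0.73, so Sema3a was at least 1.66-fold lower in GFP+ cells. It was lower in 8 of 8 pools, as for 12.2% of all genes.

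On measured values the within-pool gap of Sema3a was widest in the replicate 4 pools. It was -1.82 after vehicle and -1.62 after 2-octanone, against -0.63 to -1.27 in the other 6. The replicate 4 GFP+ arrays read 6.83 and 6.88, under their background of 7.75 and 7.93. The same held for vehicle replicates 1 and 3 (7.56 and 7.80, under 8.10 and 8.18) and 2-octanone replicate 1 (7.83, under 7.96). The sizes of these gaps, both ends of the range for the other 6 among them, therefore cannot be read. Nor can the rank of the widest. The replicate 4 pools are those with low S100a5. Without them the measured difference was -0.90 (limma adjusted p = 0.000365), with other GFP+ arrays still under background. Sema3a was lower in the same fraction as the immature neuron, globose basal, neutrophil, microvillar and macrophage markers above, and their part in the result was not tested.

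Sema3f, which binds Nrp2, did not separate the fractions. Its GFP+ arrays ran from 9.59 through a median of 9.93 to 10.38, and its GFP- arrays from 9.37 through 9.91 to 10.18. The difference was 0.09 (95% interval -0.22 to 0.39, limma adjusted p = 0.669), with 5 pools higher and 3 lower. After median centring it was called at 0.37 (limma adjusted p = 0.0309), while relative to the median of all genes it was -0.04 under both scalings.

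Slit1, a secreted ligand of the Robo receptors, was higher in GFP+ cells. Its GFP+ arrays read 12.22, 12.59, 12.10 and 11.91 after vehicle and 12.46, 12.34, 12.26 and 11.84 after 2-octanone. Its GFP- arrays read 11.82, 11.84, 11.79 and 10.86 after vehicle and 11.95, 11.33, 11.80 and 11.39 after 2-octanone. The arrays overlapped by a small margin: the lowest 2 GFP+ values, both from replicate 4, fell below the highest GFP- value. Within each pool the GFP+ cells were higher, in 8 of 8, by 0.32 to 1.05. The difference was 0.62 (SE 0.16, limma adjusted p = 0.00789), or 0.49 above the median of all genes. Without vehicle replicate 4, whose GFP- array was the lowest of all 16, it was 0.55.

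**Figure D2:**
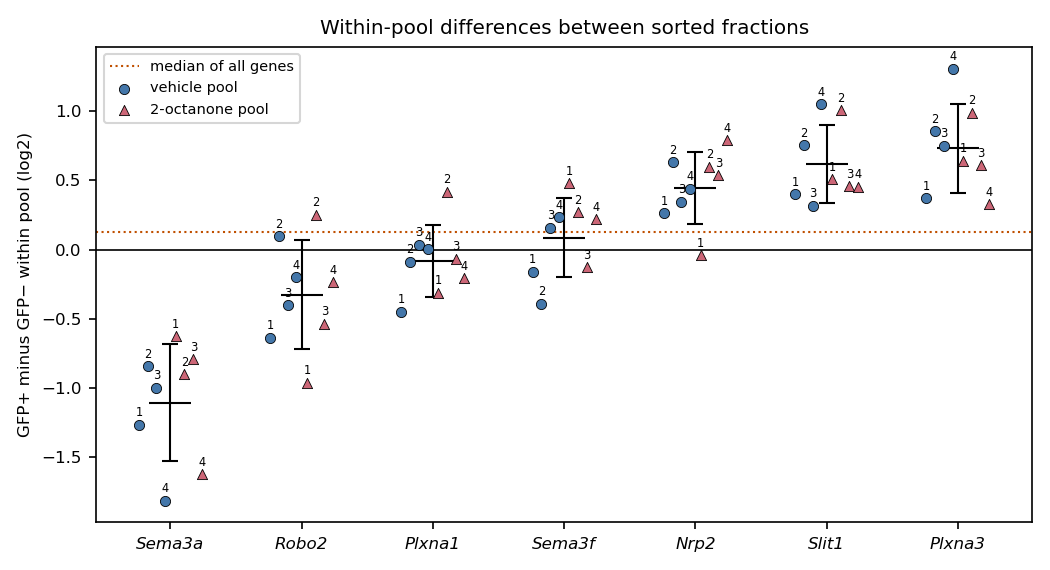
GFP+ minus GFP- signal (log2) within each of the 8 pools for the 7 genes, circles for vehicle and triangles for 2-octanone, with bars for the mean ± SD of 8 pools and a dotted line at the median of all genes (0.13). All 8 points are below 0 for Sema3a and above 0 for Slit1 and Plxna3, and 1 Nrp2 point is just below 0.

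Both fractions held mature neurons, and their markers were themselves higher in GFP+ cells, by a mean of 0.15 to 0.69 across pools (widest in vehicle pool 4). Set against the mean of the 13 mature markers of the same pool, Plxna3 was higher by 0.42 ± 0.23 (SD, n = 8 pools) and Slit1 by 0.31 ± 0.21, each in 8 of 8 pools. Nrp2 was higher by 0.13 ± 0.27, in 6 of 8, less than its spread between pools. Robo2 lay below the markers, at -0.64 ± 0.37, in 8 of 8 pools. Sema3a was below them in 8 of 8 pools too, at -1.04 ± 0.28 with its values under background set to background, so that it lay at least this far below on the mean. Plxna1 was at -0.40 ± 0.25 and Sema3f at -0.23 ± 0.29, each below the markers in 7 of 8 pools. The median difference of all genes was 0.13, under the marker means of 0.15 to 0.69. A gene at that median would thus also lie below the markers, and the share of all genes above or below them was not counted. The 13 markers include Cngb1, mostly under background, and Omp and Stoml3, whose GFP+ means of 18.39 and 18.92 lie close to the table's highest value of 18.99. Without these 3, a choice made after seeing the data, Plxna3 was at 0.41 ± 0.22 in 7 of 8 pools (-0.0046 in the other) and Slit1 at 0.30 ± 0.19 in 8 of 8. Robo2 was then at -0.65 ± 0.35 and Sema3a at -1.05 ± 0.30, each below in 8 of 8 pools. These values describe the pools and were not tested.

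Within each exposure, with 4 arrays against 4, Plxna3 and Sema3a were called in both. After vehicle Plxna3 was higher by 0.82 (SE 0.16, limma adjusted p = 0.00135) and Sema3a differed by -1.23 (SE 0.29, limma adjusted p = 0.00624), 2 of 7 genes beside 18.6% of all genes (7.54% higher and 11% lower). After 2-octanone Plxna3 was higher by 0.64 (SE 0.16, limma adjusted p = 0.0104) and Sema3a differed by -0.99 (SE 0.29, limma adjusted p = 0.0294), again 2 of 7 beside 15.1% (5.29% higher and 9.8% lower). Both Sema3a differences use GFP+ arrays under background, so their sizes cannot be read. The calls after 2-octanone depended on single pools. Without 2-octanone replicate 2, Plxna3 came to 0.53 (limma adjusted p = 0.0946) and Sema3a to -1.01 (limma adjusted p = 0.0781), and Sema3a also missed the threshold without any other single 2-octanone pool (limma adjusted p from 0.0548 to 0.0937) and after quantile normalization (-0.80, limma adjusted p = 0.0671). After vehicle Sema3a missed it without both replicate 1 pools (-1.22, limma adjusted p = 0.0545).

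Slit1 and Nrp2 had similar differences in both exposures and were called in neither, though several other settings called them. Slit1 was higher by 0.63 after vehicle (limma adjusted p = 0.0658) and by 0.61 after 2-octanone (limma adjusted p = 0.0883). With the pool as a replicate block, which uses that both fractions came from the same mice, the limma adjusted p was 0.0128 and 0.0173. Nrp2 was higher by 0.42 after vehicle (limma adjusted p = 0.126) and by 0.47 after 2-octanone (limma adjusted p = 0.0981), and the blocked limma adjusted p after 2-octanone was 0.0445. After 2-octanone the paired fit called 4 of the 7 genes, beside 19.7% of all genes (3855, against 2955 without the block). Median centring called both genes in both exposures (limma adjusted p from 0.00342 to 0.00753), while it called 11289 of all 19572 genes after vehicle and 9535 after 2-octanone. Slit1 was also called after vehicle with quantile normalization (limma adjusted p = 0.0402) and after 2-octanone when pool 4 of the vehicle mice was left out (limma adjusted p = 0.0241) or pool 4 of each exposure (limma adjusted p = 0.0197). Nrp2 was also called after 2-octanone without 2-octanone replicate 1 (limma adjusted p = 0.0466).

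In the order of the 4 group means, the fractions came before the exposures for Plxna3, Sema3a, Slit1, Nrp2 and Robo2. Plxna3 went from 11.50 ± 0.33 (SD, n = 4) in GFP- vehicle and 11.59 ± 0.27 in GFP- 2-octanone cells to 12.23 ± 0.07 in GFP+ 2-octanone and 12.32 ± 0.08 in GFP+ vehicle cells. Sema3a went from 7.60 ± 0.59 and 7.76 ± 0.60 in GFP+ vehicle and 2-octanone cells to 8.74 ± 0.31 and 8.84 ± 0.18 in GFP- 2-octanone and vehicle cells. The neighbours of one fraction differed by less than their SD, except in GFP+ cells for Plxna3, where the gap of 0.09 was not called (adjusted p = 1.000, limma). Slit1 was 11.58 ± 0.48 and 11.62 ± 0.31 in GFP- and 12.21 ± 0.29 and 12.23 ± 0.27 in GFP+ cells, each pair vehicle then 2-octanone.

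The comparison of exposures asks whether intermittent odour changed these genes in either fraction. It found no called difference for any of the 7, beside 0% of all genes called in GFP+ cells and 0.00511% (1 gene, lower) in GFP- cells. At an unadjusted p under 0.05, limma gave 618 genes (3.16%) in GFP+ and 477 (2.44%) in GFP- cells, and none of the 7 was among them. In GFP+ cells the differences, 2-octanone minus vehicle, ran from -0.09 for Plxna3 (95% interval -0.43 to 0.25) to 0.18 for Plxna1 (-0.27 to 0.63). Nrp2 differed by -0.01 (-0.40 to 0.37), Robo2 by 0.01 (-0.40 to 0.41), Slit1 by 0.02 (-0.47 to 0.50), Sema3f by 0.09 (-0.35 to 0.52) and Sema3a by 0.15 (-0.47 to 0.77). The Sema3a means of GFP+ cells were under background in both exposures, 7.60 against 7.96 after vehicle and 7.76 against 7.90 after 2-octanone. The size of its difference there cannot be read.

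In GFP- cells the differences ran from -0.17 for Sema3f (-0.60 to 0.26) to 0.10 for Plxna1 (-0.35 to 0.54). Sema3a differed by -0.09 (-0.71 to 0.52), Nrp2 by -0.06 (-0.45 to 0.32), Slit1 by 0.04 (-0.44 to 0.52), and Plxna3 and Robo2 by 0.09 each. The change of the GFP+/GFP- difference with 2-octanone was called for 0% of genes (465, 2.38%, at an unadjusted limma p under 0.05). It ran from -0.18 for Plxna3 (-0.66 to 0.30) to 0.25 for Sema3f (-0.36 to 0.86) and 0.24 for Sema3a (-0.63 to 1.12). The Sema3a value uses the GFP+ means under background. On simulated arrays the test found 72% of changes of 1 in GFP+ cells but 8% of changes of 0.5. For the change of the GFP+/GFP- difference it found 50% and 0%. The simulated arrays held 200 changed genes, and the adjusted p depends on how many genes change. These rates may therefore be too high for the comparisons here. Neutrophil markers in GFP+ cells had a median difference of 2.00 with 0 of 9 called. Their list mean spread from 7.31 to 12.75 over the GFP+ 2-octanone arrays, against 6.76 to 8.50 after vehicle. The part of these markers in the values of the 7 genes was not tested.

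**Figure D3:**
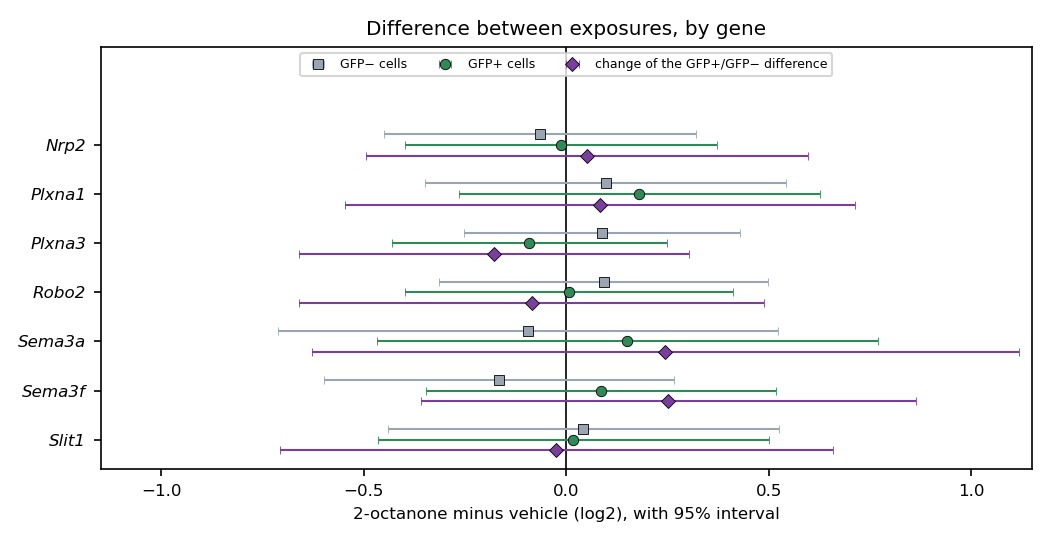
Difference between 2-octanone and vehicle (log2) with its 95% interval from limma, for the 7 genes in GFP- cells, GFP+ cells and for the change of the GFP+/GFP- difference. All 21 intervals include 0.

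The wider pathway was read from 5 lists of semaphorins, neuropilins and plexins, Slits and Robos, semaphorin co-receptors and effectors, and Slit-Robo effectors. Of 73 genes 69 were analysed, and in the sort 13 were higher and 12 lower in GFP+ cells, 36.2% beside 30.7% of all genes. Leaving out the 7 genes above, 10 were higher and 11 lower of 62 (median difference 0.16 against 0.13 over all genes). After median centring the 69 split into 46 higher and 9 lower, beside 13089 higher and 2052 lower of all 19572 genes (77.4% called). With dim probe sets left out, 45 genes remained, 12 higher and 5 lower. Beside them, 2268 were higher and 1396 lower of all 9786 genes tested (37.4% called).

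Among 19 semaphorins 4 were higher and 2 lower, 31.6% beside 30.7% of all genes. Sema3e, a class 3 ligand known to bind Plxnd1, went from 10.55 ± 0.46 to 11.69 ± 0.14 (SD, n = 4) after vehicle and from 10.75 ± 0.24 to 11.70 ± 0.24 after 2-octanone. Its arrays did not overlap, and it was higher by 1.05 (SE 0.14, limma adjusted p = 2.16e-05). Sema7a, a membrane-anchored semaphorin, was higher by 0.88 (SE 0.17, limma adjusted p = 0.000659) in 8 of 8 pools, with overlapping arrays. Sema6c, a transmembrane semaphorin, was higher by 0.71 (SE 0.13, limma adjusted p = 0.000578) without overlap. Sema6d (0.49) and Sema3b (-0.40) were called but below background on all 16 arrays, so their sizes cannot be read. Sema3b was not called after quantile normalization or median centring.

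Of 10 neuropilins and plexins 3 were higher and none lower, 30% of the list beside 30.7% of all genes. Besides Plxna3 and Nrp2 this was Plxnb3, a B-group plexin, at 8.28 ± 0.31 and 8.39 ± 0.18 in GFP- and 9.43 ± 0.17 and 9.18 ± 0.40 in GFP+ cells. The fractions did not overlap and differed by 0.97 (SE 0.14, limma adjusted p = 3.33e-05). Plxna4, the further A-group plexin above background, differed by 0.29 (limma adjusted p = 0.182) and was not called. Of 7 Slits and Robos, Slit1 was the single call, 14.3% beside 30.7% of all genes. Robo1 differed by 0.22 (limma adjusted p = 0.279), and Slit2 and Slit3, with means over 16 arrays of 5.79 and 6.50, lay under the background range.

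Semaphorin co-receptors and effectors gave 4 higher and 8 lower genes of 22, 54.5% beside 30.7% of all genes (16.7% higher and 14% lower), with a median difference of -0.14 against 0.13. The 4 higher ones were Farp2 (0.49), an exchange factor linked to plexins, the oxidoreductases Mical2 (0.44) and Mical3 (0.47), and the adhesion molecule L1cam (0.38). Of these, Mical3 was not called after quantile normalization, and each lost its call without at least 1 pool (limma adjusted p up to 0.154 for L1cam, without 2-octanone replicate 2). The largest difference of the 69 genes was that of Dpysl3, a growth-cone protein of the collapsin response family that also stands in the immature neuron list. It read 12.51 ± 0.27 and 11.88 ± 0.71 in GFP- and 8.89 ± 0.46 and 8.96 ± 0.36 in GFP+ cells, a difference of -3.27 (SE 0.21, limma adjusted p = 6.36e-09). Mical1 differed by -2.16 but passed background on none of 8 GFP+ arrays and on 6 of 8 GFP- arrays. The small GTPase Rras differed by -0.83 (SE 0.12, limma adjusted p = 5.47e-05) without overlap, and Nrcam, below background on every array, by -0.98. The remaining lower genes were Rac1 (-0.55), Fyn (-0.65), Fes (-1.20) and Rnd1 (-1.19). Fes and Rnd1 had means over 16 arrays of 6.29 and 6.27, under the background range, and Fyn had 7.86, within it. The relatives Dpysl2 (0.29, limma adjusted p = 0.180) and Crmp1 (-0.11, limma adjusted p = 0.711) were not called.

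Among 11 Slit-Robo effectors 1 was higher and 2 lower, 27.3% beside 30.7% of all genes. Arhgap39 was higher by 0.32 (limma adjusted p = 0.0488), in 6 of 8 pools, and lost its call without any 1 of 6 pools. The GTPase Cdc42 differed by -0.36 (SE 0.08, limma adjusted p = 0.00165) without overlap, and by -0.08 and uncalled after median centring. Srgap3 (-0.51) was below background on every array.

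**Figure D4:**
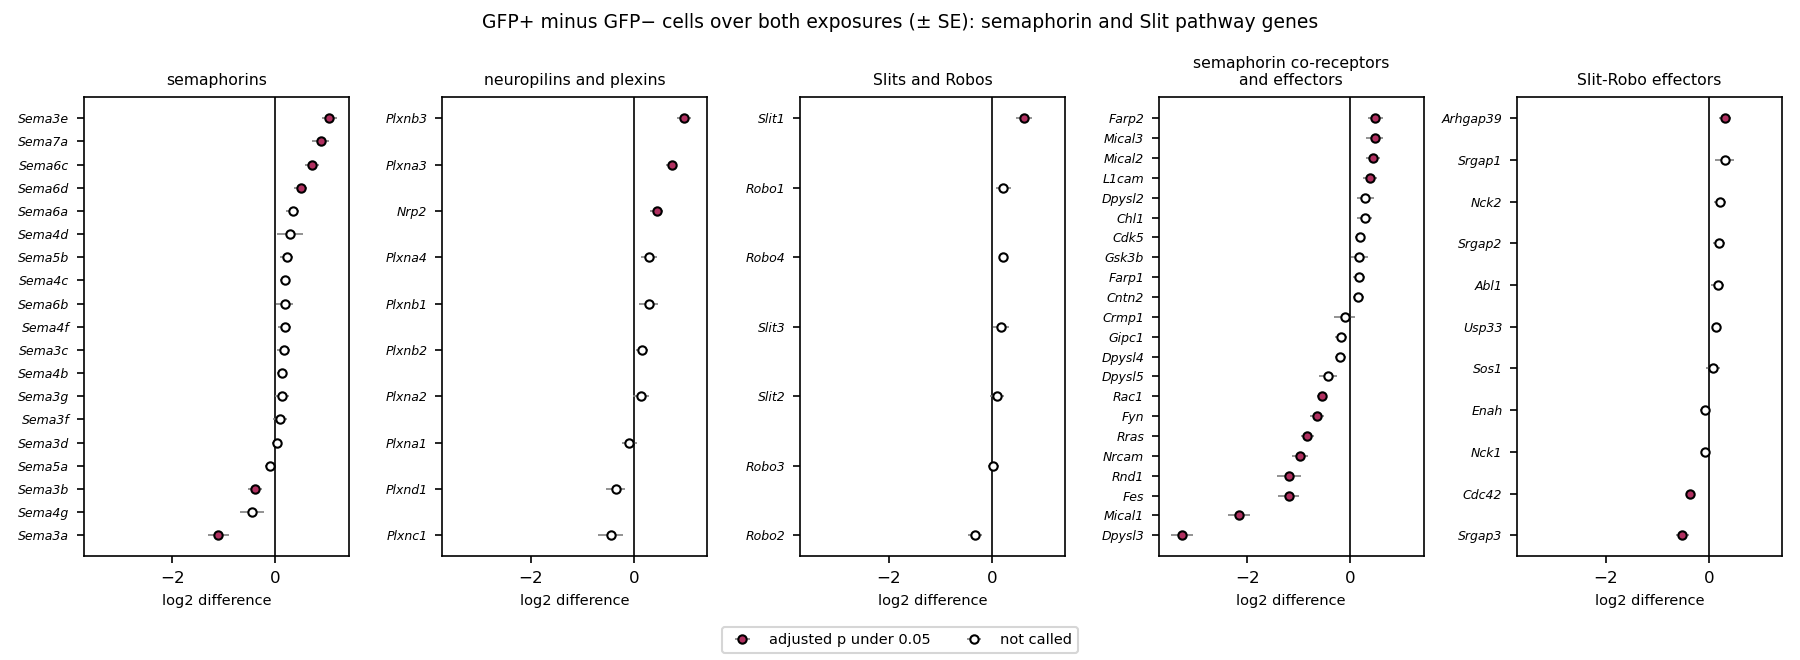
GFP+ minus GFP- difference (log2, ± SE from limma) over both exposures for the 69 genes of the 5 lists, filled points for genes with an adjusted p under 0.05. Dpysl3 (-3.27) and Mical1 (-2.16) lie farthest to the left, and Sema3e (1.05), Plxnb3 (0.97) and Sema7a (0.88) farthest to the right.

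With exposure, none of the 69 genes was called in either fraction or for the change of the difference. The smallest p in GFP+ cells with a positive sign was that of Sema7a, at 13.76 ± 0.31 after vehicle and 14.26 ± 0.37 after 2-octanone. It differed by 0.50 in GFP+ cells and by 0.50 in GFP- cells, with a limma adjusted p of 1.000 in each. In the other direction stood Mical2 in GFP+ cells (-0.29) and Sema6d in GFP- cells (-0.43, below background). For the change of the difference the extremes by p were Sema5a (0.34) and Mical1 (-0.66), both below background in at least 1 fraction.

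The genes whose patterns over the 16 arrays were most like each member were found by the root mean square (RMS) difference of centred log2 signals, a description over arrays that share pools and scaling. For Plxna3 these were Pde1c (0.16), D430042O09Rik (0.16) and Eomes (0.18), against an RMS of 0.42 of Plxna3 about its own mean. For Slit1 they were Synj2 (0.12), Sh3pxd2a (0.13) and Gm6568 (0.13), against 0.43, and for Nrp2 Med9 (0.11), Tmem19 (0.12) and Pm20d2 (0.12), against 0.32. Sema3a had no gene nearer than 0.26, with Rassf2 (0.26), the odorant receptor Olfr111 (0.26) and Shisa5 (0.27), against 0.68. Robo2 was nearest to Jun (0.17), Chrnb1 (0.17) and Zfp735 (0.19), against 0.29. Plxna1 was nearest to Gabpb1 (0.12), Ccng1 (0.14) and Tet3 (0.14), against 0.28, and Sema3f to Vps25 (0.11), Nploc4 (0.12) and Khsrp (0.12), against 0.27.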

How the data were processed

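RNA of each sorted pool was measured on Clariom S arrays, with Affymetrix Expression Console as the software, per the submitters' processing notes. The authors' deposited table was read as log2 signals from its range (2.13 to 18.99); log base and normalization are not given in the sources used here. Array medians of the named probe sets were 7.64 to 7.73 in GFP+ and 7.92 to 8.01 in GFP- cells. These ranges did not overlap, so centring each array on its median raised the GFP+ minus GFP- differences. Of 28846 probe sets, 6640 were controls and 2634 unnamed. The other 19572 matched RefSeq by Entrez identifier and entered the fits.

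All 16 arrays were fitted with limma 3.58.1 (R 4.3.3; lmFit and eBayes) on 4 group means, two-sided, Benjamini-Hochberg adjusted p under 0.05 over all probe sets, with 12 residual degrees of freedom. The fit was tested on simulated data. The number of arrays limits the precision. Pools pair the fractions, since both came from the same mice.

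The genes and lists were chosen with earlier results of these data known. Named pathway genes were the 4 smallest p per list and direction among the called, plus 1 per direction in each exposure comparison. Other listed genes (Plxna4, Robo1, Slit2, Slit3, Dpysl2, Crmp1, Rac1, Fyn, Fes, Rnd1) and the comparison with mature markers were added after values were seen. Likeness used the 3 nearest genes. Alternatives covered scaling, dim and unnamed probe sets, the fit, blocks and left-out pools.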

Additional observations from a re-analysis of the deposited data

Results flagged for a closer look

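One value of Slit1 stood apart from its group. In GFP- cells after vehicle, replicate 4 read 10.86, while the other 3 arrays read 11.79 to 11.84. Its gap to the nearest array, as a share of the group's range, was above Dixon's 95% critical value for 4 samples. All 7 genes were tested in each of the 4 groups, and chance flags about 1 in 20. Without that pool the Slit1 difference in the sort was 0.55, still called.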

How the results depend on the processing

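Over both exposures, Plxna3, Slit1, Nrp2 and Sema3a kept direction and call under every alternative run. With pools left out, 4 to 5 of the 7 genes were called, beside 22.8% to 27.7% of all genes. After 2-octanone, 1 member was called after quantile normalization (18.8% of all genes) and 4 after median centring (48.7%). The pool as replicate block called 4 (19.7%), and fits with pools left out called 0 to 3 (10% to 17.9%). The 0 was without 2-octanone replicate 2, where all-gene calls fell to 1963 in a range up to 3496. After vehicle, members called numbered 4 after centring (57.7% of all genes) and 1 to 2 with pools left out (13% to 19.6%). All-gene calls in the sort (pooled exposures, vehicle, 2-octanone) were 15141, 11289 and 9535 with centring, and 3664, 2221 and 1811 with dim probe sets left out, which tests fewer genes. The pool block gave 7038, 4288 and 3855 and, beyond Slit1 in both exposures and Nrp2 after 2-octanone, changed no member's call. The 1 gene called in GFP- cells between exposures became 0 when only the arrays compared were fitted and with the replicate number as replicate block, and 0 to 2 with pools left out.

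Signs turned as follows, none of them for a called difference; apart from the scaling itself, the cause was not tested. Quantile normalization gave Sema3f 0.0031 after vehicle. Centring gave Plxna1 0.19 in the pooled sort, 0.17 for vehicle pools and 0.22 for 2-octanone pools, and for vehicle pools Sema3f 0.26 and Robo2 0.015. With exposure in GFP+ cells it gave Robo2 -0.015 and Slit1 -0.0041. With pools left out, the sort difference of Plxna1 ran from -0.16 to 0.016 over both exposures and from -0.20 to 0.048 after 2-octanone, and that of Sema3f after vehicle from -0.13 to 0.078. The exposure difference in GFP+ cells ran from -0.095 to 0.11 for Nrp2, -0.090 to 0.14 for Robo2, -0.081 to 0.15 for Slit1, -0.11 to 0.44 for Sema3a and -0.053 to 0.21 for Sema3f. In GFP- cells it ran from -0.20 to 0.10 for Nrp2, -0.049 to 0.21 for Plxna1, -0.18 to 0.23 for Plxna3, -0.032 to 0.23 for Robo2, -0.20 to 0.0011 for Sema3a and -0.20 to 0.14 for Slit1. The change of the difference ran from -0.055 to 0.22 for Nrp2, -0.070 to 0.18 for Plxna1, -0.33 to 0.089 for Plxna3, -0.29 to 0.11 for Robo2 and -0.16 to 0.17 for Slit1.

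Deviations of arrays with the same replicate number in both exposures were correlated across genes. The correlations were 0.17 to 0.43 in GFP+ and -0.06 to 0.52 in GFP- cells. Low Eif2s3y in both replicate 1 pools and low S100a5 in both replicate 4 pools also went with the number across exposures. What the number marks is not given, so it does not settle a pairing. With it as a block no member was called between exposures. Signal near background limits Sema3a in GFP+ cells.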
